A study of Caenorhabditis elegans with 2 samples.

Results

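The genes that encode the proteins of the cytosolic ribosome were examined for binding of LIN-32 in Caenorhabditis elegans embryos by chromatin immunoprecipitation and sequencing (ChIP-seq). Members were all protein-coding genes with a name that begins with rpl-, rps- or rla- in the Ensembl annotation of genome build WBcel235. There were 81 of them among 19973 protein-coding genes of the nuclear chromosomes, of which 50 belong to the large subunit (rpl- and rla-) and 31 to the small subunit (rps-). The series held 1 group with 2 biological replicates of whole embryos of strain OP740. These animals carried the transgene wgIs740, in which lin-32 is fused to C-terminal TY1, EGFP and 3xFLAG tags beside an unc-119(+) marker, in a background with the unc-119 allele tm4063. Embryos were obtained by egg bleaching, were of mixed stage, had a labelled age of 3 h, and pooled males and females. Chromatin was sonicated and recovered with an antibody to GFP. Among these samples there was no second condition and no untagged strain, so the comparisons below set ribosomal protein genes against all genes and set peaks beside them against other peaks.

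Each ribosome has a small subunit, which reads the mRNA, and a large subunit, which forms peptide bonds. Their proteins are made in near-equal amounts in nearly all cells, and the genes are among the most strongly transcribed in an animal. LIN-32 is the worm counterpart of Atonal, a proneural transcription factor with a basic helix-loop-helix domain. Proteins of this family bind E-box hexamers (CANNTG) and are known for specifying sensory neurons. Many worm transcripts, those of ribosomal proteins among them, receive a short leader by trans-splicing, so an annotated 5′ end can be a splice site and not the start of transcription.

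Peaks came as a list for each replicate, with 30000 peaks in replicate 1 and 22618 in replicate 2. There was also a list of 26004 peaks called on both replicates together (the pooled list). A set of 1042 peaks had passed the irreproducible discovery rate (IDR) filter, a method meant to retain peaks ranked alike by both replicates. Some peaks of that set still ranked far apart in the replicate lists. The IDR set was identical to the 1042 pooled peaks with the highest signal. A peak was assigned to a gene by its summit, the highest point of the peak, which had to fall in a window reaching 2000 bp before and 500 bp past an annotated 5′ end of the gene. The signal is the authors' value, on a scale that is not stated, so it served only to rank peaks within a list, with rank 1 the strongest. Read depth is unknown from these lists, and the intervals below cover counting error over genes only.

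The sequences at the summits of 8 of the 16 IDR peaks beside ribosomal protein genes are shown first. Most of the 16 held short sequences that were picked for being shared among them and rare at other IDR peaks. None had the E-box hexamers CAGATG or CAGCTG within 50 bp of the summit, against 31.8% of other IDR peaks with either. Each sequence runs 5′ to 3′ in the direction of the ribosomal protein gene. It covers 151 bases centred on the summit, from the RefSeq assembly of WBcel235. Capitals mark 8 heptamers on either strand, of which number 1 is TACCGTA, number 2 is GGCCTAA, number 3 is CGCTCCA, number 4 is AAATCGT, number 5 is ACACTCG, number 6 is CGACGCA, number 7 is AAGTGTA and number 8 is ATTTCAA. A heptamer on the other strand is printed as its reverse complement, as with TACGGTA for TACCGTA. In rps-24 the capitals mark a repeat unit of 9 bases.
rpl-3 (chrIII:3867494-3867644, plus strand): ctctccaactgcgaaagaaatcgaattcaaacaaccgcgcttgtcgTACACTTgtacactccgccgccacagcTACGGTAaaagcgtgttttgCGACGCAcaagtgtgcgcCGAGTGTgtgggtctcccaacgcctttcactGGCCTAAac
rpl-20 (chrIV:4750003-4750153, minus strand): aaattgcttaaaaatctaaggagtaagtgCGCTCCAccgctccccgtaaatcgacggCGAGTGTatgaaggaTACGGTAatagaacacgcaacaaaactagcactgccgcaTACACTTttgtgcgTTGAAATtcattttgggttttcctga
rpl-15 (chrIV:654843-654993, minus strand): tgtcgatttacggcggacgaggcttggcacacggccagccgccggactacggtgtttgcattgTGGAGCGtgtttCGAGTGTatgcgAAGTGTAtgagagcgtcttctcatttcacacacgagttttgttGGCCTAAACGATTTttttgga
rpl-43 (chrII:14154456-14154606, plus strand): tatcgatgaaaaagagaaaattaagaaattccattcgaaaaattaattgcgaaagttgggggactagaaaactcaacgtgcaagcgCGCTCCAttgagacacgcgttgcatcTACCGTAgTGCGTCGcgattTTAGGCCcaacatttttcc
rps-1 (chrIII:4475582-4475732, plus strand): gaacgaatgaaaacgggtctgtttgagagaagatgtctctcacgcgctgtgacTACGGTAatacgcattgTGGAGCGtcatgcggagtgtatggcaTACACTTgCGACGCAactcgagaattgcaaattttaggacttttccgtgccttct
rpl-11.2 (chrX:2242924-2243074, minus strand): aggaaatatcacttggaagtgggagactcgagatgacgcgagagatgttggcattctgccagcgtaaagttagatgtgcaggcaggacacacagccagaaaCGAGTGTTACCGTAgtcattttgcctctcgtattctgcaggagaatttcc
rps-28 (chrIV:1659204-1659354, plus strand): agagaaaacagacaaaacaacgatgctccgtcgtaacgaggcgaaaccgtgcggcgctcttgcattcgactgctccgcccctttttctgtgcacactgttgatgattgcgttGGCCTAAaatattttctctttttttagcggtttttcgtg
rps-24 (chrIV:385134-385284, plus strand): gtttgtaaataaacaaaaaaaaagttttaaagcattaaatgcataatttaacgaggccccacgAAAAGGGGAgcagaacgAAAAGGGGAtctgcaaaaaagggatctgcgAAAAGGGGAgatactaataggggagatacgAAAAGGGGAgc
The rpl-3, rpl-15 and rpl-20 windows, from the strongest peaks of the family, each held 5 kinds of heptamer within 75 bp of the summit. The rps-24 window held none and had 4 copies of the repeat unit. The windows shown include those richest in heptamers, so they are not typical of the 16. Among those not shown, rpl-9, rpl-35, rps-19 and rps-20 had 1 kind each within 100 bp of the summit, and rpl-1 had none.

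IDR peaks lay beside ribosomal protein genes more often than beside genes at large. A summit lay in the window of 16 of 81 members, 19.8% (exact 95% interval 11.7 to 30.1%), against 4.15% of all protein-coding genes (829 of 19973). The subunits had similar shares, with 10 of 50 large subunit genes, 20% (exact interval 10.03 to 33.7%), and 6 of 31 small subunit genes, 19.4% (7.45 to 37.5%). The 16 peaks were distinct and made up 1.54% of the IDR set. When each summit was given only to the gene with the nearest 5′ end, 9 members had an IDR peak, 11.1%, against 2.88% of all genes. By chromosome, 5 of 25 members on chromosome I, 1 of 10 on II, 4 of 18 on III, 5 of 18 on IV, none of 8 on V and 1 of 2 on X had an IDR peak. These groups are small and shares of all genes by chromosome are not given here, so no difference between chromosomes is read from them. Summits not given with the sequences lay at position 2876819 of chromosome I for rpl-1, 9669272 for rpl-24.2, 9626065 for rps-19, 14469355 for rps-20 and 14759527 for rps-26. Those of rpl-35 and rpl-9 lay at 7854690 and 7573128 of chromosome III, and that of rpl-12 at 13240723 of chromosome IV.

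In the pooled list nearly the whole family had a peak, mostly a weak one. A pooled summit lay in the window of 78 of 81 members, 96.3%, against 53.7% of all genes. The members without one were rpl-37, rpl-42 and rps-2. Another gene had its 5′ end nearer to the strongest pooled summit at 36 of the 78 members. When each pooled summit was given only to the gene with the nearest 5′ end, 52 of 81 members had one. The same share over all genes is not given here. A pooled peak of rank 5000 or better was present at 36 of 81 members, 44.4%, against 16.0% of all genes, and the subunits had 21 of 50 and 15 of 31. The median rank of the strongest pooled peak was 6287 over the 78 members, against 9812.5 over all 10726 genes with a pooled peak. Members also carried more peaks each, since 55.6% of members had at least 2 pooled summits in the window, against 20.8% of all genes. The 3 members with 4 such summits were rpl-36, rpl-39 and rps-14.

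**Figure D1:**
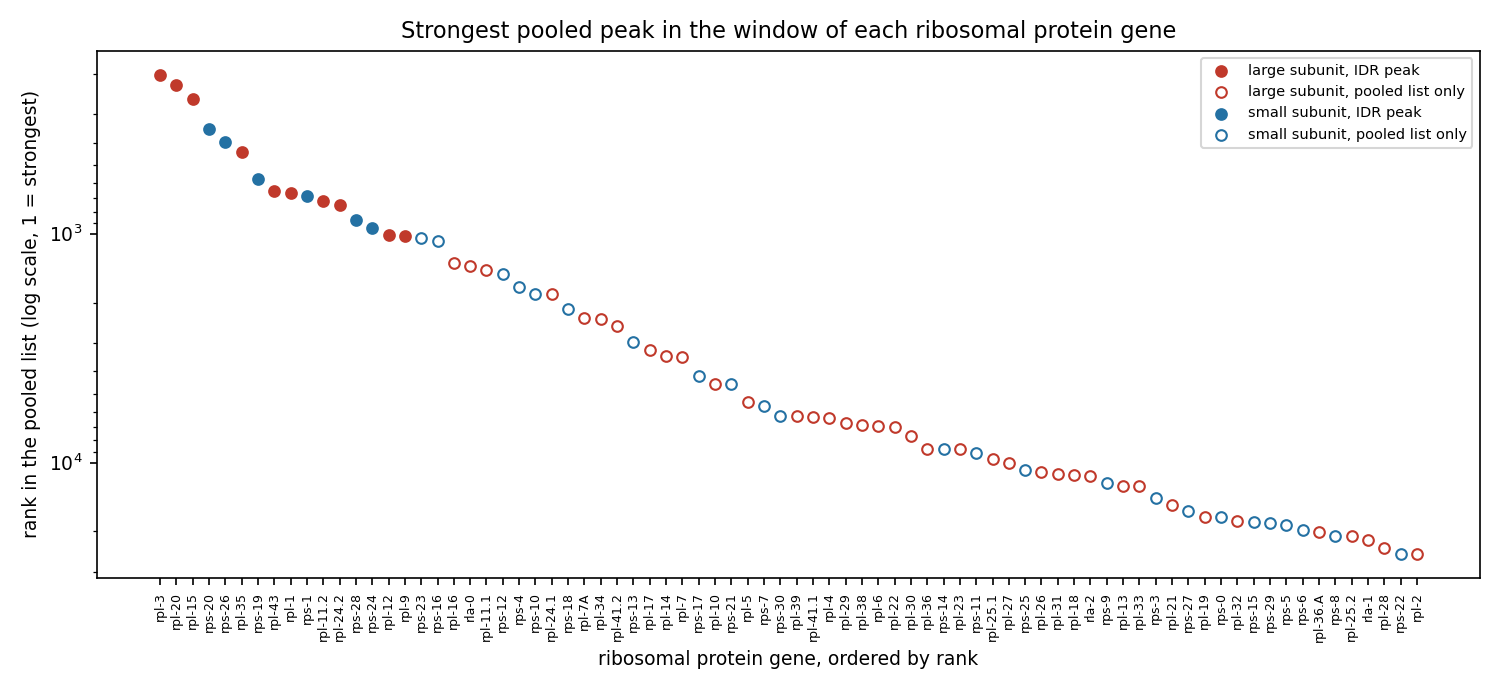
Rank of the strongest pooled peak in the window of each of 78 ribosomal protein genes (vertical axis, log scale with rank 1 at the top), ordered by rank from left to right; filled points are IDR peaks and open points are in the pooled list only, red for the large and blue for the small subunit. Ranks run from 202 at rpl-3 to 25008 at rpl-2, and the subunits are interleaved.

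The peaks sat a short way before the genes. All 16 IDR summits lay upstream, with a median of 321 bp (quartiles 267 and 420 bp, range 72 to 763 bp). Of these, 12 of 16, 75%, lay between 100 and 500 bp upstream, against 34.4% of the strongest IDR peaks of 813 other genes, whose median was 516 bp upstream. None of the 16 lay more than 1000 bp upstream, where 30.9% of the other genes' peaks lay, and none lay downstream, where 7.87% did. The subunits did not separate, with medians of 321 bp upstream for 10 large subunit peaks and 336 bp for 6 small subunit peaks. The same position recurred among the 62 members whose strongest pooled peak was outside the IDR set, of which 30, 48.4%, lay between 100 and 500 bp upstream. Over all 78 members with a pooled peak this share was 53.8%, against 21.4% of all genes with one. Counting every pooled summit around the most upstream 5′ end, members had 59.3 per 100 genes between 500 and 200 bp upstream, against 9.89 for all genes. They also had 37.0 per 100 genes between 1800 and 1200 bp upstream, against 15.9, and 25.9 in the first 500 bp downstream, against 14.8.

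**Figure D2:**
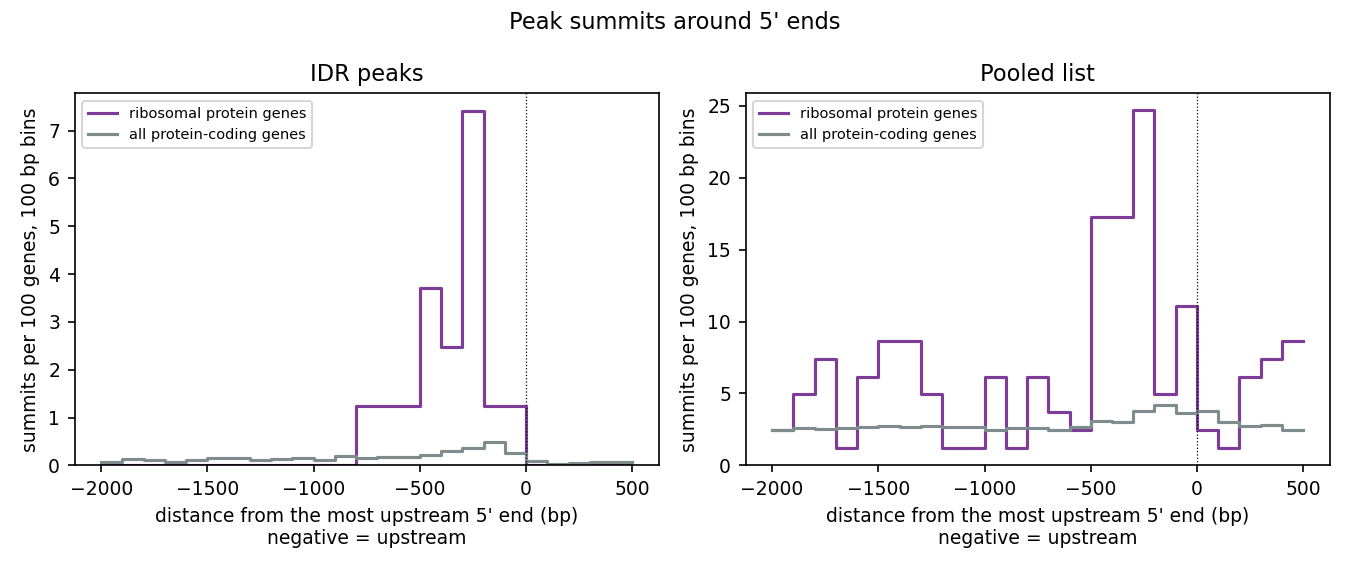
Number of summits per 100 genes in bins of 100 bp around the most upstream annotated 5′ end (horizontal axis, negative values upstream), for IDR peaks on the left and the pooled list on the right; purple is the 81 ribosomal protein genes and grey all protein-coding genes. Between 300 and 200 bp upstream the members had 7.41 IDR and 24.7 pooled summits per 100 genes, against 0.365 and 3.81 for all genes, and smaller groups of pooled summits lie between 1800 and 1200 bp upstream and in the members' first 500 bp.

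These distances are measured from annotated ends, which in most members follow letters that also end a splice acceptor. The bases AG, the end of a splice acceptor, stood directly before an annotated 5′ end in 75 of 81 members, 92.6%, against 36.1% of all genes. The longer TTTCAG stood there in 44 of 81 members, 54.3%, against 16.7% of all genes. Whether these letters serve as a splice acceptor was not tested. Where an annotated end is a trans-splice site, transcription begins upstream of it, and the distance to that start was not measured.

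Among large subunit genes, rpl-3, rpl-20 and rpl-15 had the strongest peaks. The peak of rpl-3, whose product reaches toward the peptidyl transferase centre, had a pooled signal of 206 and rank 202 at 285 bp upstream, and ranked 212 in replicate 1 and 212 in replicate 2. The peak of rpl-20 had a pooled signal of 194 and rank 225 at 300 bp upstream, and ranked 257 in replicate 1 and 203 in replicate 2. The peak of rpl-15 had a pooled signal of 181 and rank 258 at 342 bp upstream, and ranked 181 in replicate 1 and 395 in replicate 2. These 3 were the only peaks of the family in the upper 300 ranks of the pooled list. The peak of rpl-35, a protein beside the exit tunnel of the nascent chain, had a pooled signal of 140 and rank 441 at 444 bp upstream, with ranks of 455 in replicate 1 and 400 in replicate 2. The peak of rpl-43 had a pooled signal of 116 and rank 653 at 763 bp upstream, with ranks of 658 in replicate 1 and 655 in replicate 2. The rpl-43 summit was the farthest of the 16 from its gene. It lay only 158 bp upstream of the divergent gene Y48B6A.1.

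The remaining large subunit peaks were weaker, and some were uneven between replicates. The peak of rpl-1, which belongs to a mobile stalk beside the exit site for tRNA, had a pooled signal of 115 and rank 663 at 511 bp upstream, with ranks of 800 in replicate 1 and 825 in replicate 2. The peak of rpl-11.2, a protein that binds the smallest ribosomal RNA of the subunit, had a pooled signal of 110 and rank 718 at 381 bp upstream, with ranks of 1152 in replicate 1 and 606 in replicate 2. The peak of rpl-24.2, which is grouped with the family by name although its relatives in other animals and yeast are assembly factors, had a pooled signal of 108 and rank 752 at 143 bp upstream, with ranks of 1076 in replicate 1 and 586 in replicate 2. Both of the last peaks ranked higher in replicate 2. The peak of rpl-12, at the base of the stalk that recruits elongation factors, had a pooled signal of 93.7 and rank 1013 at 72 bp upstream, with ranks of 638 in replicate 1 and 4947 in replicate 2. The peak of rpl-9 had a pooled signal of 93.0 and rank 1025 at 297 bp upstream, with ranks of 1391 in replicate 1 and 1251 in replicate 2. The rpl-12 peak was thus carried mainly by replicate 1, and the rpl-9 peak was the weakest of the 16.

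Small subunit peaks ranked between 349 and 944 in the IDR set. The peak of rps-20, in the head of the subunit, had a pooled signal of 155 and rank 349 at 252 bp upstream, with ranks of 486 in replicate 1 and 424 in replicate 2. The peak of rps-26, which lines the channel where mRNA leaves, had a pooled signal of 148 and rank 397 at 403 bp upstream, with ranks of 351 in replicate 1 and 525 in replicate 2. The peak of rps-19, which is needed in human cells for maturation of the small subunit RNA, had a pooled signal of 124 and rank 577 at 269 bp upstream, with ranks of 643 in replicate 1 and 355 in replicate 2. These 3 peaks lay between divergent genes, nearer to ekl-4, tmem-107 and hsr-9 than to the ribosomal protein gene. The peak of rps-1 had a pooled signal of 114 and rank 681 at 261 bp upstream, with ranks of 536 in replicate 1 and 760 in replicate 2. The peak of rps-28 had a pooled signal of 101 and rank 870 at 412 bp upstream, with ranks of 3502 in replicate 1 and 493 in replicate 2. The peak of rps-24 had a pooled signal of 96.7 and rank 944 at 678 bp upstream, with ranks of 999 in replicate 1 and 1379 in replicate 2. The rps-28 peak was carried mainly by replicate 2.

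The IDR peaks of the family were also looked up in each replicate list. Each of the 16 had a summit within 100 bp in both replicate lists, as did 96.6% of the 1026 other IDR peaks. The IDR set was itself made from these lists, so this match was largely fixed in advance and is not separate support. Most were strong in each list, as 12 of 16 were among the 1042 strongest peaks of replicate 1 and 13 of 16 among the 1042 strongest of replicate 2. In both lists at once this held for 10 of 16, against 66.4% of other IDR peaks. The peaks were of moderate strength, with a median pooled signal of 116 at the 16, against 130 at other IDR peaks, and a median percentile of 36.9 within the set. In the lists taken alone, 76 of 81 members had any replicate 1 summit in the window, against 58.6% of all genes, and 72 of 81 had any replicate 2 summit, against 49.6% of all genes. A summit in both lists, not necessarily at the same place in the window, was present at 68 members, against 37.9% of all genes. The gene rps-2 had none in either.

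**Figure D3:**
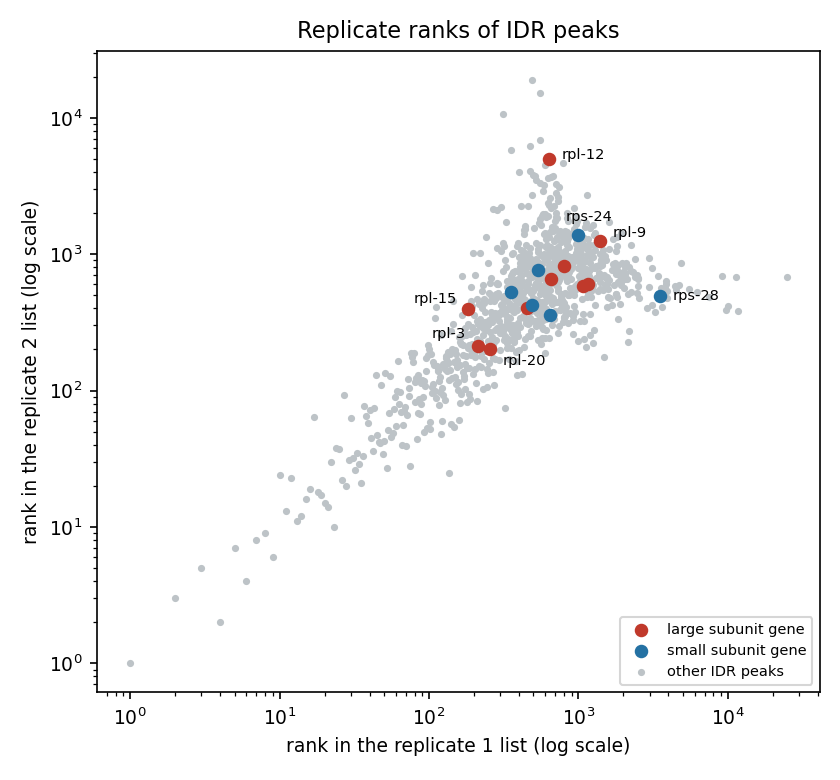
Rank of each IDR peak in the replicate 1 list (horizontal axis, log scale) against its rank in the replicate 2 list (vertical axis, log scale); red and blue points are peaks beside large and small subunit genes and grey points are the 991 other IDR peaks matched in both lists. Most members fall within the grey cloud, and rpl-12 (638 and 4947) and rps-28 (3502 and 493) lie away from the diagonal.

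Just outside the IDR set, rps-23, whose product sits at the decoding centre, had the pooled peak of rank 1043, the first after the set, with a signal of 92.3 against 93.0 at rpl-9. Its summit lay 315 bp upstream, and it ranked 1171 in replicate 1 and 1337 in replicate 2, so that neither rank set it apart from rpl-9. The next were rps-16 at rank 1077, rpl-16 at 1349, rla-0 at 1381 and rpl-11.1 at 1439, all more than 1200 bp upstream and nearer to another gene. The rps-16 summit lay 1805 bp upstream of rps-16 and 123 bp upstream of fib-1, the gene of fibrillarin, an rRNA methyltransferase that lies directly before it on the same strand. The rpl-16 summit lay 225 bp upstream of lias-1 and ranked 9644 in replicate 1 and 791 in replicate 2. The rla-0 summit lay in a coding exon of pas-5 and ranked 6415 in replicate 1 and 1197 in replicate 2. The rps-16 peak ranked 2483 in replicate 1 and 851 in replicate 2, and the rpl-11.1 peak 2636 in replicate 1 and 1385 in replicate 2. All 4 of these distant peaks thus ranked higher in replicate 2, and a window of 1000 bp upstream would leave them out.

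Nearer to its gene lay the peak of rps-12, at rank 1493 and 174 bp upstream, with ranks of 4462 in replicate 1 and 978 in replicate 2. The peak of rps-4 lay 250 bp upstream at rank 1714, with ranks of 3020 in replicate 1 and 3676 in replicate 2. A single peak of rank 1827 lay between the divergent genes rps-10 and rpl-24.1, 286 bp and 324 bp upstream of them, so that 1 peak served 2 members, and it ranked 1487 in replicate 1 and 6524 in replicate 2. The peak counted for rps-18, of rank 2131, lay 1381 bp upstream in a coding exon of sec-61.A and had no replicate 2 summit within 100 bp. Other pairs that shared their strongest peak were rpl-36 with rps-14 and rpl-39 with rps-30, so the 78 members had 75 distinct strongest peaks. Outside the IDR set, 24 of 62 strongest peaks of members, 38.7%, had a match in both replicates, against 33.2% of those of other genes. This share followed rank, with 16 of 20 at ranks up to 5000 (74.3% for other genes), 7 of 17 at ranks 5001 to 10000 (43.1%) and 1 of 25 beyond rank 10000 (10.6%). A further 25 were matched in replicate 1 only, 10 in replicate 2 only and 3 in neither.

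The edges of the window decided few IDR assignments but more of the pooled ones. With a window of 1000 bp upstream to 200 bp downstream, 66 of 81 members had a pooled peak, 81.5%, against 36.3% of all genes. With 500 bp upstream to 100 bp downstream, 59 had one, 72.8%, against 23.8% of all genes. The IDR summits nearest to the edges from inside were those of rpl-43 at 763 bp upstream and rpl-12 at 72 bp upstream. Just outside lay an IDR peak 721 bp downstream of the 5′ end of rpl-27, with rank 639 and egl-30 as the nearest gene, and 1 of rank 352 at 2122 bp upstream of rpl-32. Another lay 2535 bp upstream of rla-0 with rank 975. Among strongest pooled peaks, those of rpl-29 at 480 bp downstream and rpl-25.2 at 1808 bp upstream were the outermost, and 9 members had theirs downstream.

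Many of these summits lay in short gaps shared with a second gene. Another protein-coding gene had its 5′ end nearer to the summit in 7 of the 16 IDR peaks, at 4 of 10 large and 3 of 6 small subunit genes, and all 7 of those genes ran on the opposite strand. Besides the genes named above, these were Y17G9B.5 beside rpl-20, Y71F9AL.9 beside rpl-1 and lpd-7 beside rpl-9. The gene lpd-7 is the worm relative of the ribosome assembly factor pescadillo. With each summit given only to the gene with the nearest 5′ end, 9 of the 16 members kept an IDR peak. Of all 829 protein-coding genes with an IDR peak, 575 kept one. The upstream neighbour ran on the opposite strand at 14 of the 16 members with an IDR peak and at 55 of all 81, 67.9%, against 46.2% of all genes. The median gap to that neighbour was 617.5 bp at the 16 and 557 bp at the 81, against 939 bp for all genes. Not all of the 14 had a short gap to share. Those of rps-24, rpl-35 and rps-28 were 2701, 11497 and 14392 bp, and that of rpl-24.2 was 0. Which of a divergent pair a peak belongs to cannot be told apart from these lists. The summits were intergenic in 12 of 16 peaks, in exons of non-coding RNAs at rpl-1, rpl-9 and rps-1, and in an intron of C03D6.1 at rpl-24.2. The intergenic share of other IDR peaks is not given here.

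None of the 16 IDR peaks lay near a tRNA gene, a class of strongly transcribed small genes beside which other peaks of the IDR set lay. No summit was within 500 bp of a tRNA gene, against 17.2% of other IDR peaks (176 of 1026). The nearest tRNA genes were 3263 bp away from the rpl-15 summit and 4699 bp away from the rps-1 summit. In the wider pooled list only rpl-11.1 had its strongest peak within 500 bp of a tRNA gene, at 497 bp. That summit lay 1753 bp upstream of rpl-11.1 in an intron of T22F3.2.

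The E-box forms typical of Atonal proteins were missing from these summits. CAGATG or CAGCTG, searched on both strands within 50 bp, was present at 0 of 16 summits, against 31.8% of other IDR peaks (326 of 1026). Widening the search to 100 bp still found 0 of 16, against 40.8%, and narrowing it to 25 bp gave 21.2% of other peaks. Of the other E-box forms, CAAGTG lay within 50 bp of 3 of the 16 summits, against 6.14% of other IDR peaks. This form shares its last 5 letters with heptamer 7. CAATTG was at 1 of 16 summits, against 3.12% of other IDR peaks. CAAATG was at 1 of 16, against 8.38%, and CAACTG at 1 of 16, against 7.02%. No summit of the 16 had CACCTG, against 12.0% of other IDR peaks, or CACATG, against 7.60%. Nor did any have CATATG, against 5.07%, or CACGTG, against 1.85%. Among members outside the IDR set, 4 of 59 distinct strongest pooled peaks, 6.78%, had CAGATG or CAGCTG within 50 bp of the summit, against 9.07% of 7865 such peaks of other genes. Those 4 were at rpl-2, rpl-27, rps-4 and rps-7. In the 600 bp before the 5′ end, either hexamer was present in 3 of the 16 members with an IDR peak, 18.8%, and in 27.2% of all members, against 27.6% of all genes. In the nearest 300 bp it was present in 0 of the 16, against 14.3% of all genes. Base composition was alike, with a mean GC content of 49.7% ± 5.39 (SD) over 101 bp at the 16 summits and 49.3% ± 7.14 at other IDR peaks. The other motifs searched within 50 bp were TATAAA at 0 of 16 and 4.78% of other IDR peaks, GAGAGA at 3 of 16 and 21.0%, TTTCAG at 0 of 16 and 2.83%, GGGCGG at 1 of 16 and 7.70%, and the B box of tRNA genes (GGTTCGA, any base at 2 positions, CC) at 0 of 16 and 4.87%. No match means only that these letters were not in the window.

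Heptamers shared by the 16 summits were then listed. A heptamer was kept when it occurred within 100 bp of at least 5 of the 16 summits and of under 5% of other IDR summits, which left 8 after overlapping ones were dropped. Because they were picked from these same summits, their counts there describe the peaks and are not a test. TACCGTA lay near 6 of 16 summits, at rpl-3, rpl-11.2, rpl-20, rpl-43, rps-1 and rps-20, against 2.34% of other IDR peaks, and all 6 were within 50 bp. GGCCTAA lay near 5, at rpl-3, rpl-15, rpl-43, rps-26 and rps-28, against 0.975%. In each of these 5 it lay between 40 and 84 bp from the summit on the side of the gene, as seen at the 3′ ends of the rpl-3, rpl-15 and rpl-43 sequences above. CGCTCCA and ACACTCG were near 5 summits each, against 1.95% and 2.24%. At least 2 kinds of heptamer occurred at 10 of 16 summits, against 1.85% of other IDR peaks, and at least 3 kinds at 7 of 16, against 0.292% (3 of 1026). The richest was rpl-3 with 6 kinds, followed by rpl-15, rpl-20 and rpl-43 with 5 each, and 3 of these 4 had the strongest peaks of the family. No heptamer was near the rpl-1 and rps-24 summits. At rps-24 the unit AAAAGGGGA occurred 5 times within 100 bp, and 3 or more copies were found at 6 of 1026 other IDR peaks. Reads in repeats can be hard to place, and the part of this in the rps-24 peak was not tested.

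Members that took no part in that choice were examined in the 600 bp before the most upstream 5′ end. GGCCTAA occurred there in 18 of 65 members without an IDR peak, 27.7%, against 3.42% of all genes, and in 25 of all 81 members. ACACTCG occurred in 11 of the 65, 16.9%, against 3.11%, and AAATCGT in 21 of the 65, 32.3%, against 14.0%. TACCGTA occurred in 11 of the 65, 16.9%, against 8.44%, and CGCTCCA in 6 of the 65, 9.23%, against 4.56%. The other 3 were no more frequent than in all genes, with CGACGCA in 0 of the 65 against 2.38%, AAGTGTA in 3.08% against 9.30%, and ATTTCAA in 35.4% against 45.5%. The subunit, position and strand counts that follow cover all 81 members. They include 7 members with an IDR peak for GGCCTAA and 6 for ACACTCG, so they are not separate from the choice of heptamers. GGCCTAA was present in both subunits, in 17 of 50 large and 8 of 31 small subunit genes. Its 28 sites in members lay at a median of 239 bp upstream, and 67.9% of them read GGCCTAA on the strand of the gene, against 51.7% of 807 sites in all genes. ACACTCG sites in members lay at a median of 249 bp upstream, and 23.5% of 17 sites read ACACTCG on the strand of the gene, against 51.0% in all genes. Only 5 of the 59 distinct strongest pooled peaks of members outside the IDR set, 8.47%, had GGCCTAA within 100 bp of the summit, against 1.56% of peaks of other genes. A match is a string of letters in a window and does not show which protein, if any, binds it.

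**Figure D4:**
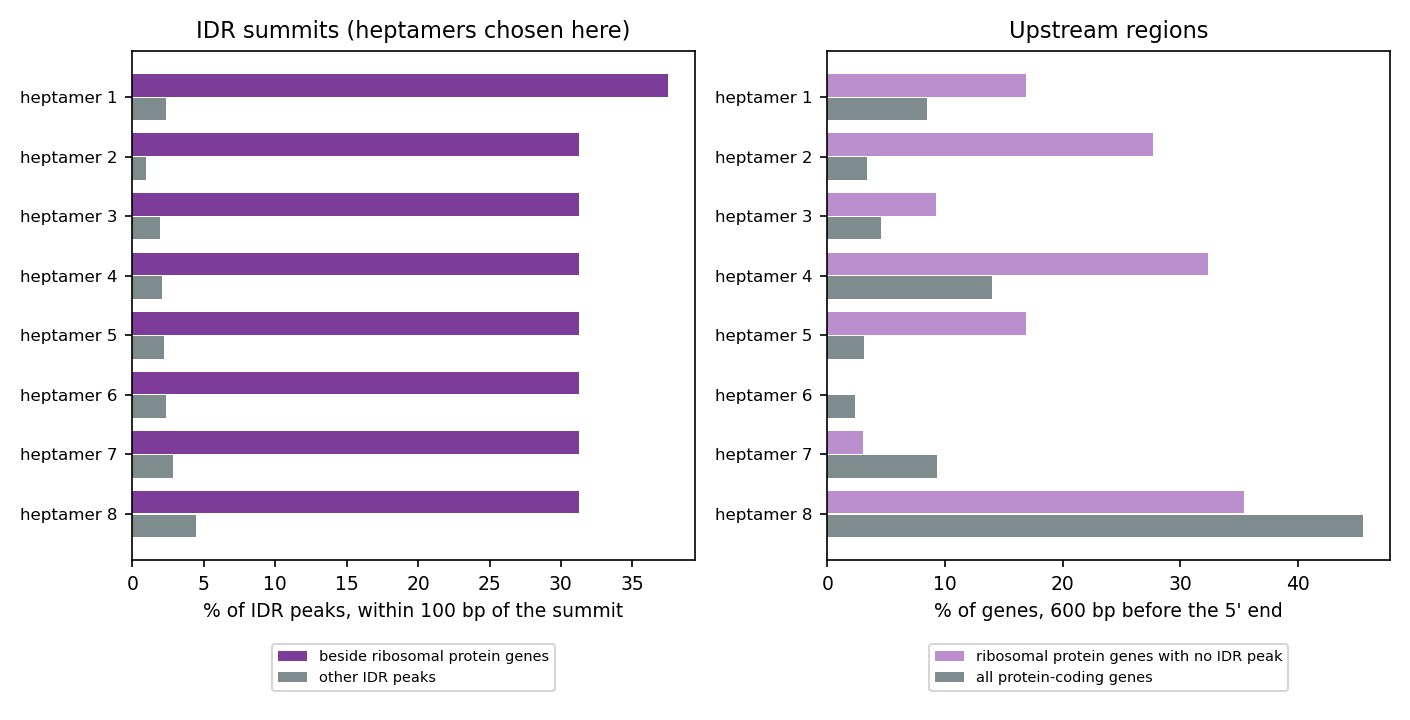
Share of peaks or genes that hold each of 8 heptamers on either strand, numbered as beside the sequences, from TACCGTA (1) at the top to ATTTCAA (8) at the bottom. The left panel gives the percentage of IDR summits with the heptamer within 100 bp (purple, 16 beside ribosomal protein genes; grey, 1026 others), from which the heptamers were chosen, and the right panel the percentage of genes with it in the 600 bp before the 5′ end (light purple, 65 ribosomal protein genes with no IDR peak; grey, all genes), where GGCCTAA stands at 27.7% against 3.42%.

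Other parts of the translation machinery had IDR peaks at 0 to 15.2% of their genes, against 19.8% of the 81 members and 4.15% of all genes. The highest share, of initiation factors, lay inside the members' interval of 11.7 to 30.1%. With each summit given only to the gene with the nearest 5′ end, members fell to 11.1%. Under that rule initiation factors stayed at 15.2% and elongation and release factors at 12.5%, and the remaining groups were below the members. In the pooled list, too, some of these groups came close to the members or passed them. A pooled peak of rank 5000 or better was present at 44.4% of members, against 42.4% of initiation factor genes, 47.1% of 17 nucleolar and ribosome assembly genes and 16.0% of all genes. The median rank of the strongest pooled peak was 6287 for members, against 4985 for initiation factors and 4104 for the nucleolar and assembly genes. Any pooled peak was present at 96.3% of members, against all 8 elongation and release factor genes and 81.8% of initiation factor genes. Of 70 mitochondrial ribosomal protein genes, which serve the separate ribosome of mitochondria, 5 had an IDR peak, 7.14%, and 62.9% had a pooled peak. The strongest of the 5 was at mrps-28, of rank 24 and 1001 bp upstream, and nearer to Y43F8C.7. Translation initiation factors had IDR peaks at 5 of 33 genes, 15.2%, which were eif-3.C, iff-2, eif-2Bgamma, eif-3.G and eif-3.B. They lay 270, 80, 761, 332 and 226 bp upstream in that order. Among elongation and release factors 1 of 8 had one, eef-1A.2, at 422 bp upstream with rank 755. Aminoacyl tRNA synthetases had 2 of 31, at ears-2 and nars-1. None of the 17 nucleolar and ribosome assembly genes (fib-1, nst-1, rbd-1, pro-1, pro-2, pro-3, ncl-1, ruvb-1, ruvb-2, nola-3 and 7 genes named nol-, a list that did not hold lpd-7), none of 8 subunits of RNA polymerases I and III and neither of the ubiquitin fusion ribosomal protein genes ubl-1 and ubq-2 had one. The pooled peaks of ubl-1 and ubq-2 ranked 22562 and 23415, although both GGCCTAA and TACCGTA lay in the 600 bp before each gene. In that region GGCCTAA was present in 30.9% of members, against 2 of 8 elongation and release factor genes (25%), 2.86% of mitochondrial ribosomal protein genes and 3.03% of initiation factor genes.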

How the data were processed

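Peaks of LIN-32::GFP ChIP-seq in 2 biological replicates, samples of 1 group, were read from 4 deposited lists. Deposited notes state that peaks were called for each replicate and for both combined with 1 shared control alignment, and that the IDR list came out of those 3 lists. The signal column is deposited by the authors on an unstated scale and was used only for ranks within a list. The deposited −log10 q-value ran from 1.92 to 2.95 in the IDR set. Aligner, peak caller and IDR threshold: not given in the sources used here. Depth per sample is unknown. Coordinates are ce11 per the labels, which is WBcel235.

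Summits on the 6 nuclear chromosomes were set against the 5′ ends of Ensembl release 115 and the RefSeq sequence of WBcel235. Replicate summits within 100 bp counted as matched. Exact (Clopper-Pearson) 95% intervals are given for the shares of all members and of each subunit with an IDR peak. Other shares are given without an interval. With 1 group there was no test. The assignment of summits was tested on simulated data. The text names every member with an IDR peak, the 10 others with the strongest pooled peaks, members at the window's edges and those with a summit within 500 bp of a tRNA gene. Members and lists were chosen with earlier results of these data known, and the heptamers after seeing the summits. Alternatives covered the window, the nearest 5′ end, the motif window, the stronger 50% of the IDR set and each replicate alone. Python 3.11.15 was used with numpy 2.4.6, pandas 2.3.3, scipy 1.17.1 and matplotlib 3.10.9.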

Additional observations from a re-analysis of the deposited data

How the results depend on the processing

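Of 53 alternative values computed, 40 stayed within the limits set, which are not given here. Outside them were the IDR counts by nearest gene and with the stronger 50% of the set. So were the median signal percentile with replicate 2 alone and most heptamer counts in 300 bp before the 5′ end. Those heptamers included TACCGTA and ACACTCG but not GGCCTAA. The 16 ribosomal protein genes with an IDR peak fell to 9 (6 large and 3 small subunit genes) when only the nearest gene was counted, against 2.88% of all genes, and to 6 (4 large and 2 small) with the stronger 50% of the IDR set, against 2.08%. These rules by construction count fewer peaks. Windows of 1000 bp and 500 bp upstream left 16 and 13 members, against 2.79% and 1.92% of all genes. Leaving out a replicate, with the 1042 strongest peaks of the other in place of the IDR set, gave 12 members from replicate 1 and 16 from replicate 2, of which 12 and 13 were among the 16, against 4.10% and 4.18% of all genes. The members lost were rpl-9, rpl-11.2, rpl-24.2 and rps-28 with replicate 1 alone, and rpl-9, rpl-12 and rps-24 with replicate 2 alone, which added rpl-16, rps-12 and rps-16. The median signal percentile of the peaks was 40.2 to 47.7 in these lists. Leaving out rpl-24.2, a choice made after seeing the data, leaves 15. In 300 bp in place of 600 bp before the 5′ end, also chosen after seeing the data, GGCCTAA occurred in 17 of 81 members, against 1.71% of all genes, TACCGTA in 11, against 4.41%, and ACACTCG in 9, against 1.52%. The lists hold 2 replicates without read counts, and signal tracks, input and an untagged strain were not analysed here, so peak heights at these genes could not be set against a background level.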
